A study of Mus musculus with 18 samples.

Results

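The heat shock proteins described here are 10 genes of the cytosolic and mitochondrial protein folding machinery: Hspa1a, Hspa1b, Hspa8, Hsp90aa1, Hsp90ab1, Hspd1, Hspe1, Hsph1, Dnajb1 and Hspb1. They were taken by gene symbol, and the choice was made with earlier results of these data known. All 10 were found among the 22238 symbols of the count table. They passed the filter on low counts, as did 15494 symbols in all. RNA was measured by sequencing of uterus from CD-1 mice, which were adult and ovariectomized, so that the ovaries supplied no hormone in any group. Each of the 6 groups had 3 libraries, named by an agent and a hormone: PBS OIL, PBS E2 and PBS P4 received the vehicle PBS, while DOX OIL, DOX E2 and DOX P4 received doxorubicin, a chemotherapeutic that intercalates into DNA and blocks topoisomerase II. OIL was the hormone vehicle, E2 is the usual short name of estradiol and P4 that of progesterone. Doses, times and the hour of collection were not given in the sources used here, and neither was whether each library came from a separate animal, so the p-values measure the spread between these libraries.

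Heat shock proteins bind unfolded protein and help it to fold, to assemble or to be degraded. In the cytosol, HSP70 proteins cycle between ATP and ADP with the help of J-domain partners and nucleotide exchange factors, and pass some clients to HSP90, which holds steroid hormone receptors, the estrogen and progesterone receptors among them, in a state able to bind hormone. Members of these families are either made at all times (Hspa8, Hsp90ab1) or strongly induced by the transcription factor HSF1 when proteins unfold (Hspa1a, Hspa1b, Dnajb1, Hspb1). In mitochondria, Hspd1 and Hspe1 form the chaperonin HSP60 and its lid HSP10. The uterus of an ovariectomized mouse grows and makes much new protein when estrogen is given.

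HSF1 binds DNA at heat shock elements, which are alternating GAA and TTC units spaced 2 bases apart. The following stretches upstream of 4 of the genes (RefSeq, GRCm38.p6, 5′ to 3′ on the strand of the gene) are shown as examples. Capitals mark pairs or runs of such units. Whether these elements have a part in the levels in the uterus was not tested. The stretch of Hspe1 is chr1:55088053-55088082, plus strand; that of Hspa1a is chr17:34972217-34972296 and that of Hspa1b chr17:34959299-34959378, both minus strand; that of Hspb1 is chr5:135887776-135887855, plus strand.
Hspe1: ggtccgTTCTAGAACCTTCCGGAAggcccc
Hspa1a: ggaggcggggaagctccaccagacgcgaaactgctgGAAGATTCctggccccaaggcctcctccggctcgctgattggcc
Hspa1b: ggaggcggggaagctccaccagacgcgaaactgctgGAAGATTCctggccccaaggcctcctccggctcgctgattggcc
Hspb1: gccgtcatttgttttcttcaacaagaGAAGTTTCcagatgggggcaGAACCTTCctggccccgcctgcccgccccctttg

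Promoter windows, from 250 bases before to 50 after a RefSeq start, were given for 7 of the 10 genes and not for Hspa8, Hsp90aa1 and Hsp90ab1. The pairs GAANNTTC and TTCNNGAA, each its own reverse complement and thus the same on both strands, overlap within a longer run. Hspd1 and Hspe1, which stand head to head on chromosome 1 and are transcribed away from each other, both have the run shown for Hspe1 in a window. For Hspd1 this holds for the window of 1 of its 2 RefSeq starts, the inner one; seen from the outer end of the annotated gene the run lies inside Hspd1. A run of 3 such units was found in 0.603% of 32851 promoter windows and a pair in 15.1%. Hsph1 had a pair before its start and a run of 3 units just after it, Hspa1a and Hspa1b had 1 pair each, Hspb1 had 2 pairs, and the windows of Dnajb1 held neither. The palindromic estrogen response element, 2 half-sites GGTCA and TGACC with 3 bases between them and the same on both strands, was in the windows of none of the 7 genes, and in 0.07% of all windows. These matches describe letters in a window and do not show that a factor binds there.

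Hspa1a and Hspa1b are neighbouring copies on chromosome 17 (34969190 to 34972156 and 34956436 to 34959238, minus strand, 1 exon each), 9951 bases apart. Their first 250 upstream bases were identical at 247 positions and differed at 3. Of the 50-base stretches in the Hspa1a transcripts 58.8% were also found in those of Hspa1b, so reads could be split between the copies and their separate counts are uncertain. Processed copies also share sequence with other members: the share of 50-base stretches found in transcripts of any other gene was 50.1% for Hspb1, 47.5% for Hsp90aa1, 42.1% for Hspd1, 39.4% for Hspa8 and 22.8% for Hspe1, against 3.44% for Hsp90ab1, 0.412% for Dnajb1 and 0% for Hsph1. Of the 2967 exonic bases of Hspa1a, 2225 lie within the span of Gm20481, a protein-coding gene on the opposite strand. Whether they lie in its exons was not examined. Hspd1 (55077835 to 55088243, minus strand) and Hspe1 (55088132 to 55091307, plus strand) overlap by 112 bases, where reads cannot be assigned without strand. How such reads were counted was not given in the sources used here.

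Library totals ran from 18042357 counts (DOX OIL replicate 3) to 39783785 (PBS E2 replicate 1), and no library was a copy of another in its group. Pairs from different groups were not compared. All 10 epithelial and all 10 stromal marker genes of the uterus passed the filter. DOX changed 2 of all genes tested under OIL, 0 under P4 and 6358 under E2. Adipocyte markers stood apart in some groups, with a summed level from 401 to 5680 CPM (counts per 1000000 scaled counts of a library) in PBS E2 and from 96.5 to 313 in DOX E2.

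**Figure D1:**
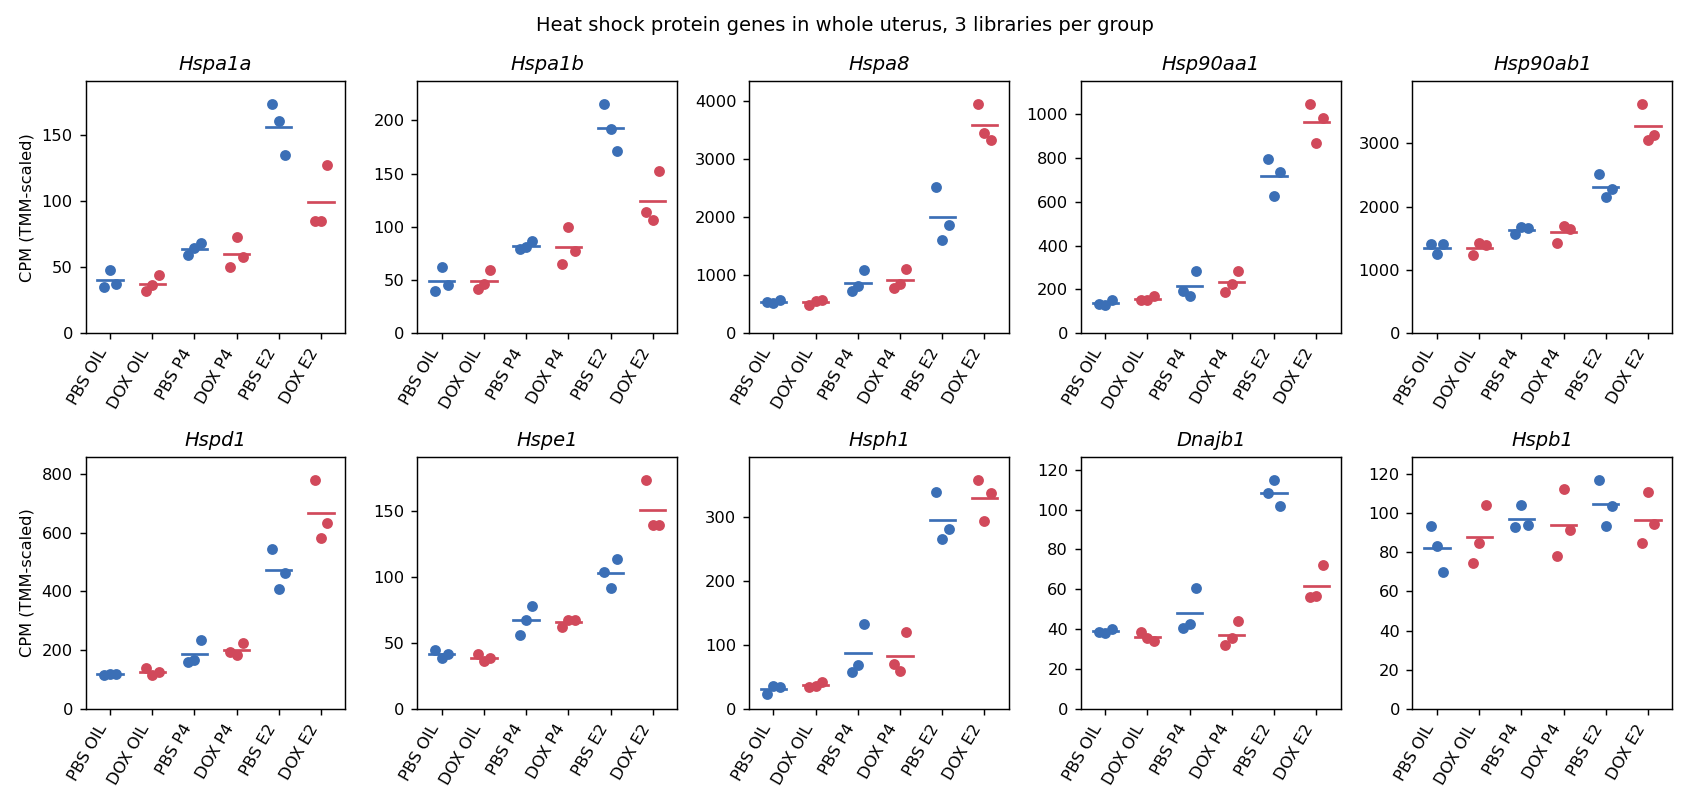
Level of each heat shock protein gene in every library, in CPM on a linear axis from 0 that differs between genes, by group; points are libraries and bars are means. Hspa8 in DOX E2 (3334 to 3947 CPM) lies above PBS E2 (1598 to 2520), while Dnajb1 in DOX E2 (56.2 to 72.1) lies below PBS E2 (102 to 115).

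Levels in the oil control uterus spanned a wide range. Per kilobase of annotated exon, the PBS OIL level was 451 ± 31.3 CPM per kb (SD, n = 3) for Hsp90ab1, the constitutive HSP90 beta, and 127 ± 4.29 for Hspa8, the constitutive HSP70. Next came Hspb1 (the small heat shock protein HSP25) at 79.7 ± 11.4, Hspd1 at 44.4 ± 1.15, Hsp90aa1 (the inducible HSP90 alpha) at 35.3 ± 3.06 and Hspe1 at 28.1 ± 2.1. The inducible HSP70 genes were lower, with 17.5 ± 4.11 for Hspa1b and 13.5 ± 2.36 for Hspa1a. The level per kb was 12.1 ± 0.344 for Dnajb1, the J-domain partner HSP40, and 4.27 ± 0.855 for Hsph1, the exchange factor HSP110. The 10 genes together took 0.262% ± 0.00945 of all counts in PBS OIL and 0.264% ± 0.0124 in DOX OIL, 0.347% ± 0.0411 and 0.343% ± 0.0364 in PBS P4 and DOX P4, and 0.608% ± 0.0555 and 0.808% ± 0.0511 in PBS E2 and DOX E2.

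The first comparison was E2 against OIL in the PBS arm. E2 raised 9 of the 10 genes, with Hspb1 as the exception; 61.4% of all genes tested were called in this comparison, 29.6% higher and 31.9% lower. The median difference of the 10 genes was 1.92 on the log2 scale, against -0.09 over all genes tested. In bulk tissue, more cells of a type and more RNA per cell cannot be told apart, here or in the results that follow.

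Hsph1 moved furthest of the 10. Its level was 23.9, 35.5 and 33.7 CPM in PBS OIL and 338, 265 and 281 CPM in PBS E2. Every E2 library was well above every OIL library, a difference of 3.25 ± 0.30 (log2 ± SE, 9.49-fold, adjusted p = 2.52e-07). Hsp90aa1 was measured at 134, 129 and 152 CPM in PBS OIL and at 797, 628 and 735 CPM in PBS E2, again without overlap (2.38 ± 0.18, 5.19-fold, adjusted p = 3.71e-08). Its constitutive relative Hsp90ab1 rose less, from 1402, 1245 and 1412 CPM to 2510, 2147 and 2278 CPM (0.77 ± 0.10, 1.71-fold, adjusted p = 8.68e-06). As a ratio within each library, Hsp90aa1 counts per 100 Hsp90ab1 counts were 10.3 ± 0.627 in PBS OIL and 31.1 ± 1.61 in PBS E2.

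The HSP70 genes and their partner rose too. Hspa8, which serves folding in unstressed cells, was at 545, 528 and 565 CPM in PBS OIL and at 2520, 1598 and 1865 CPM in PBS E2 (1.87 ± 0.18, 3.65-fold, adjusted p = 3.55e-07). Hspa1a stood at 34.7, 47.9 and 37.2 CPM in PBS OIL and 173, 160 and 135 CPM in PBS E2 (1.97 ± 0.19, 3.91-fold, adjusted p = 2.86e-07). Hspa1b ran alongside it (1.97 ± 0.19, 3.93-fold), and its count was 1.23 ± 0.0751 times that of Hspa1a in PBS OIL and 1.24 ± 0.0351 times in PBS E2. Dnajb1, which stimulates the HSP70 ATPase, was at 38.6, 37.9 and 40.1 CPM in PBS OIL and at 108, 115 and 102 CPM in PBS E2 (1.48 ± 0.15, 2.79-fold, adjusted p = 5.53e-07). In none of these genes did an OIL library reach an E2 library. Counts of Hspa1a and Hspa1b together per 100 Hspa8 counts were 16.4 ± 3.84 in PBS OIL and 17.9 ± 3.56 in PBS E2, a difference smaller than the spread within either group.

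The mitochondrial chaperonin rose with unequal sizes. Hspd1 was at 114, 119 and 119 CPM in PBS OIL and at 545, 409 and 464 CPM in PBS E2 (2.01 ± 0.16, 4.03-fold, adjusted p = 4.11e-08). Hspe1, which shares its promoter region with Hspd1, was at 44.6, 38.5 and 41.2 CPM and then at 103, 91.3 and 113 CPM (1.31 ± 0.12, 2.48-fold, adjusted p = 2.31e-07). Hspd1 counts per Hspe1 count were 2.85 ± 0.274 in PBS OIL and 4.62 ± 0.607 in PBS E2. Hspb1 was at 93.4, 83.2 and 70.0 CPM in PBS OIL and 117, 93.2 and 104 CPM in PBS E2, where the groups touched (0.35 ± 0.15, adjusted p = 0.058). Hspb1 passed with DESeq2 (adjusted p = 0.0372) and limma-voom (0.0238). Within edgeR it passed with DESeq2 size factors (0.046) and with only the groups compared (0.0494). It also passed without PBS OIL replicate 1 (0.033) or PBS E2 replicate 2 (0.0382). In the other fits it did not pass, such as that with the adipocyte level as a covariate (0.35 ± 0.16, adjusted p = 0.0653).

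**Figure D2:**
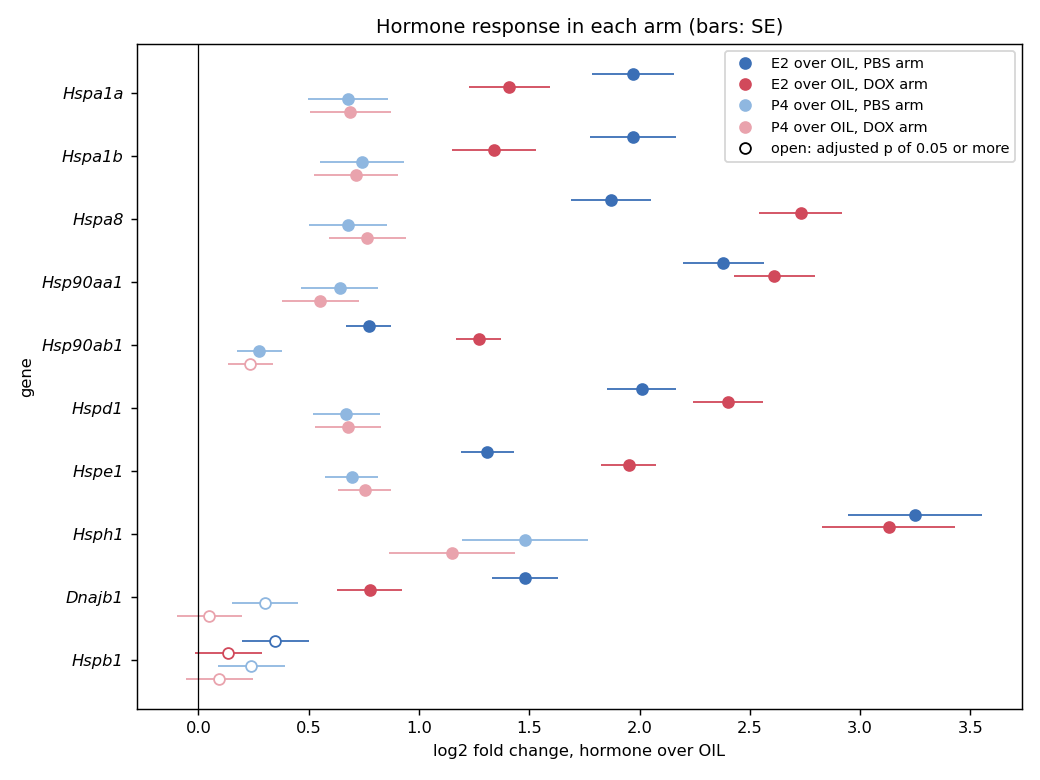
Log2 fold change of each gene with E2 or P4 against OIL, with SE, in the PBS and DOX arms; filled symbols passed an adjusted p of 0.05 and open ones did not. In E2 the genes spread from 0.13 (Hspb1, DOX arm) to 3.25 (Hsph1, PBS arm).

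In the DOX arm E2 raised the same 9 genes, in a comparison where 72.6% of all genes tested were called, 35.1% higher and 37.5% lower. Hspa8 rose 6.66-fold (2.73 ± 0.19), Hsp90aa1 6.10-fold (2.61 ± 0.18), Hspd1 5.29-fold (2.40 ± 0.16), Hspe1 3.87-fold (1.95 ± 0.12) and Hsp90ab1 2.42-fold (1.27 ± 0.10). Hsph1 rose 8.77-fold (3.13 ± 0.30). The folds were 2.66 for Hspa1a (1.41 ± 0.18), 2.52 for Hspa1b (1.34 ± 0.19) and 1.71 for Dnajb1 (0.78 ± 0.15, adjusted p = 0.000201). Hspb1 did not pass (0.13 ± 0.15, adjusted p = 0.437). The 9 E2-raised genes had no overlap between OIL and E2 libraries in either arm, where 62.4% of all genes tested in the PBS arm and 75.8% in the DOX arm had none.

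Immediate early genes, which respond to growth stimuli and to tissue handling, also moved with E2: 14 of 18 were called higher and 1 lower in the PBS arm, and 14 higher and 2 lower in the DOX arm. Of 10 stromal markers 5 were lower and 1 higher with E2 in the PBS arm, and 8 lower and 1 higher in the DOX arm (medians -0.35 and -1.01). Of 10 epithelial markers 1 was higher and 3 lower in the PBS arm, and 5 higher and 1 lower in the DOX arm. Of 10 smooth muscle markers 3 were higher in the PBS arm, and 2 were higher and 3 lower in the DOX arm. Of 8 ciliated cell markers 3 were lower in the PBS arm and 4 in the DOX arm. The part of these markers in the rise of the heat shock protein genes was not tested. Of 15 adipocyte markers 1 was lower in the PBS arm and 4 in the DOX arm (medians 0.16 and -2.27). With the adipocyte level as a covariate 9 of the 10 genes were called higher in each arm.

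With E2 in both groups, DOX divided the heat shock protein genes into those that fell and those that rose. Dnajb1, Hspa1a and Hspa1b fell, and Hspa8, Hsp90ab1, Hspd1 and Hspe1 rose, while Hsp90aa1, Hsph1 and Hspb1 did not pass. That is 7 of 10 called, where 41% of all genes tested were called, 20.4% higher and 20.6% lower. The median difference over the 10 genes was 0.29 on the log2 scale, against 0.02 over all genes tested.

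Dnajb1 was at 108, 115 and 102 CPM in PBS E2 and at 56.2, 56.5 and 72.1 CPM in DOX E2. No DOX library reached a PBS library, and the level fell by 0.81 ± 0.15 on the log2 scale (SE, adjusted p = 0.00056). Hspa1a was at 173, 160 and 135 CPM in PBS E2 and at 85.0, 84.6 and 127 CPM in DOX E2. The third DOX E2 library was the highest of its group but still below the lowest PBS E2 library, and the gene fell by 0.66 ± 0.18 (adjusted p = 0.00864). Hspa1b followed its copy, at 215, 192 and 172 CPM and then 114, 106 and 152 CPM (-0.64 ± 0.19, adjusted p = 0.0135). Both copies summed into 1 gene gave the same call.

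The opposite direction was seen in Hspa8 and Hsp90ab1. Hspa8 was at 2520, 1598 and 1865 CPM in PBS E2 and at 3947, 3453 and 3334 CPM in DOX E2, where the lowest DOX library was above the highest PBS library (0.84 ± 0.18, adjusted p = 0.00158). Hsp90ab1 was at 2510, 2147 and 2278 CPM and then at 3621, 3046 and 3131 CPM, also without overlap (0.50 ± 0.10, adjusted p = 0.00132). Hsp90aa1, the inducible HSP90 alpha, pointed the same way, with 797, 628 and 735 CPM in PBS E2 and 1047, 868 and 983 CPM in DOX E2. Its groups did not overlap, and its difference of 0.42 ± 0.17 missed the threshold (adjusted p = 0.0616). It passed with DESeq2 (adjusted p = 0.0485) and limma-voom (adjusted p = 0.0468). Within edgeR it passed with a replicate block (adjusted p = 0.0238) and with only the groups compared (0.0431). With the adipocyte level as a covariate in edgeR it did not pass (0.34 ± 0.27, adjusted p = 0.386). Hsph1, an exchange factor for HSP70, overlapped between the groups (0.16 ± 0.28, adjusted p = 0.669).

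Both mitochondrial genes rose. Hspe1 was at 103, 91.3 and 113 CPM in PBS E2 and at 173, 139 and 139 CPM in DOX E2 (0.55 ± 0.12, adjusted p = 0.00185). Hspd1 was at 545, 409 and 464 CPM and then at 780, 583 and 633 CPM (0.49 ± 0.15, adjusted p = 0.0161). The groups did not overlap in either gene, and the ratio of Hspd1 to Hspe1 counts was 4.62 ± 0.607 and 4.41 ± 0.195. Hspb1 lay between 93.2 and 117 CPM in PBS E2 and between 84.5 and 111 CPM in DOX E2, with overlap (-0.12 ± 0.15, adjusted p = 0.564). Of the 10 genes, 8 had no overlap between the groups (5 higher and 3 lower), where 49.3% of all genes tested had none.

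**Figure D3:**
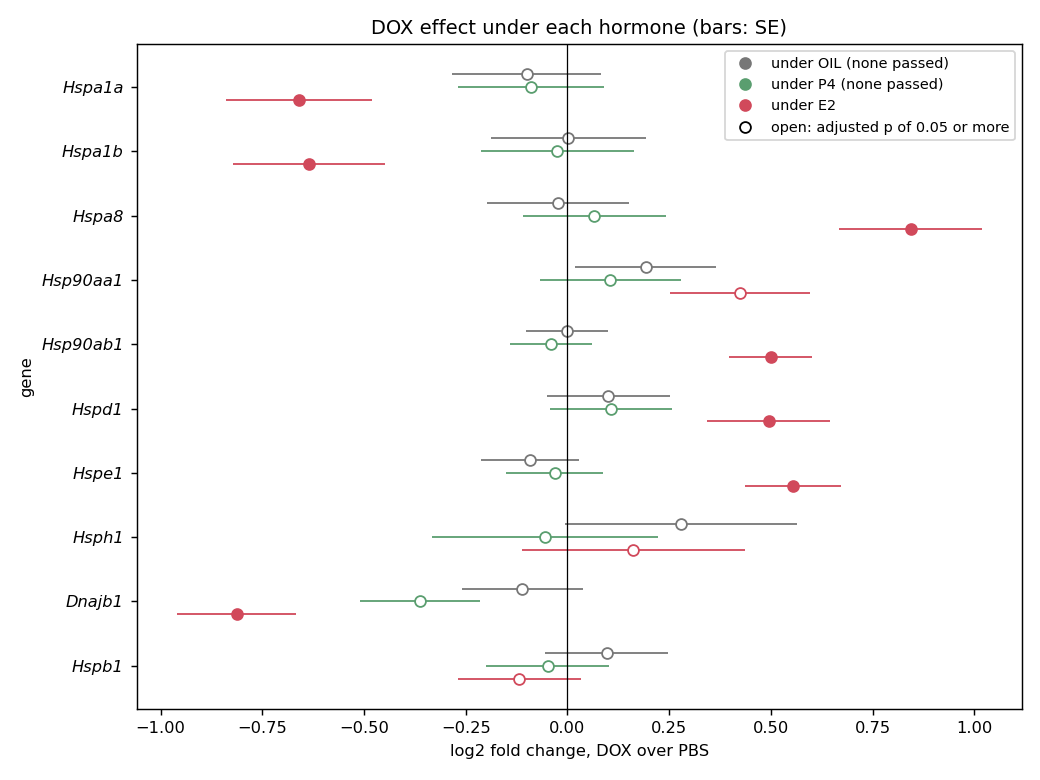
Log2 fold change of DOX over PBS for each gene under OIL, E2 and P4, with SE; filled symbols passed an adjusted p of 0.05. Under E2 the genes run from -0.81 (Dnajb1) to 0.84 (Hspa8), and under OIL and P4 none passed.

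The divided response changed the proportions among partners of the HSP70 cycle. Counts of Hspa1a and Hspa1b together per 100 Hspa8 counts were 15.4, 22.0 and 16.4 in PBS E2 and 5.05, 5.52 and 8.38 in DOX E2. In the other 5 groups the group means lay between 15.8 and 17.9, so DOX E2 stood alone below them. Dnajb1 counts per 100 Hspa8 counts were 4.29, 7.20 and 5.46 in PBS E2 and 1.42, 1.64 and 2.16 in DOX E2, against a mean of 7.12 in PBS OIL and 6.75 in DOX OIL. Under P4 this ratio ran from 5.28 to 5.61 in PBS P4 and from 3.97 to 4.18 in DOX P4, also without overlap. The ratio of the HSP90 genes behaved otherwise, with 31.1 ± 1.61 Hsp90aa1 counts per 100 Hsp90ab1 counts in PBS E2 and 29.6 ± 1.57 in DOX E2. These ratios were chosen with the differences known and are given as a description.

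**Figure D4:**
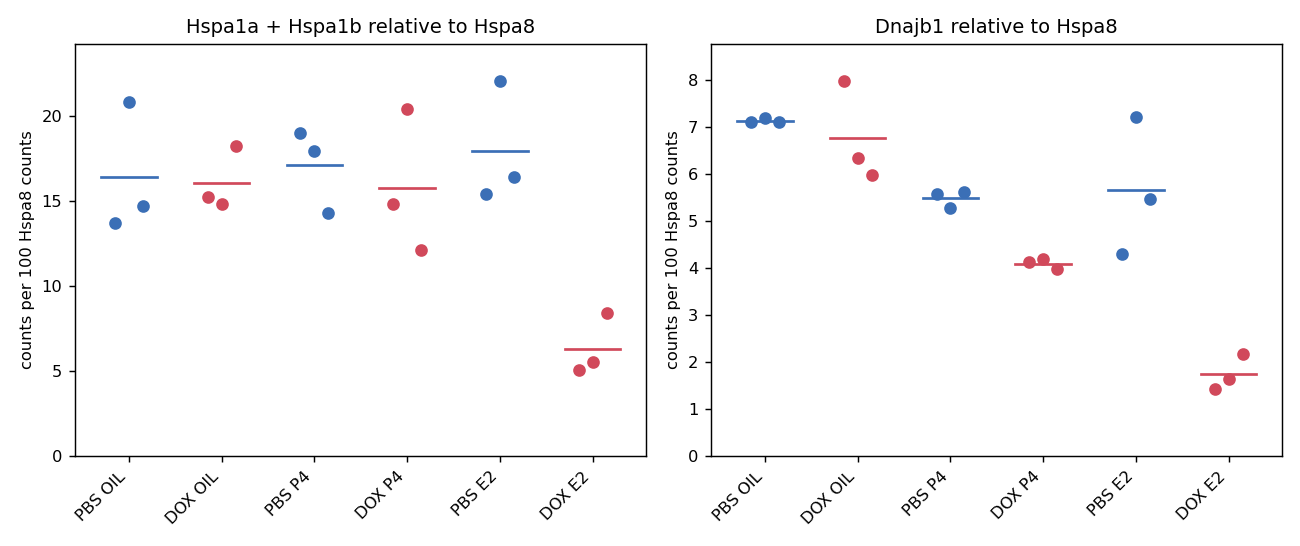
Counts of Hspa1a and Hspa1b together, and of Dnajb1, per 100 Hspa8 counts in each library, by group; points are libraries and bars are means. In DOX E2 the HSP70 ratio lies at 5.05 to 8.38, and in PBS E2 at 15.4 to 22.0.

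All 15 adipocyte markers were lower with DOX under E2 (median -4.32 on the log2 scale), and in DOX E2 replicate 1 Adipoq, Plin1, Retn, Lep and Cidec had 0 counts, as had Plin1, Lep, Cidec and Acvr1c in replicate 2. With the adipocyte level as a covariate 1 of the 7 calls was left, that of Dnajb1 (-0.84 ± 0.22, adjusted p = 0.0155), and since that level differs between the groups its share and that of DOX cannot be told apart. Among the differences that no longer passed, Hspa8 had 0.76 ± 0.28 (0.84 without the covariate) and Hsp90ab1 0.44 ± 0.16 (0.50). Hspd1 had 0.44 ± 0.24 (0.49 without it) and Hspe1 0.36 ± 0.18 (0.55). Each of these genes had a smaller difference and a larger SE than without the covariate. For Hspa1a the difference was -0.34 ± 0.25 against -0.66 without the covariate, and for Hspa1b -0.32 ± 0.26 against -0.64. Without PBS E2 replicate 1, the library with the most adipocyte RNA, all 7 calls held. PBS E2 replicates 2 and 3, at 401 and 1160 CPM, were still above every DOX E2 library (96.5 to 313 CPM). That fit therefore does not separate the adipocyte level from DOX. Other markers moved less with DOX under E2: 2 of 10 epithelial genes were higher (median 0.45), 2 of 10 stromal genes were higher and 3 lower, and 2 of 10 smooth muscle, 2 of 8 ciliated cell and 3 of 18 immediate early genes were lower; their part was not tested. The Hspa1b call was lost without DOX E2 replicate 2 (-0.53), and the Hspd1 call without PBS E2 replicate 2 (0.40), PBS E2 replicate 3 (0.48) or DOX E2 replicate 1 (0.34).

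Whether the E2 response itself differed between the arms was asked with the interaction of E2 and DOX, in which 22.9% of all genes tested were called, 10.1% higher and 12.8% lower. The response was larger in the DOX arm for Hspa8 (0.87 ± 0.25, adjusted p = 0.021), Hspe1 (0.65 ± 0.17, adjusted p = 0.0138) and Hsp90ab1 (0.50 ± 0.14, adjusted p = 0.0213). For Dnajb1 it was smaller (-0.70 ± 0.21, adjusted p = 0.0249). The difference in response was not called for Hspa1b (-0.64 ± 0.27, adjusted p = 0.0938) and Hspa1a (-0.56 ± 0.26, adjusted p = 0.124), nor for Hspd1, Hsp90aa1, Hspb1 and Hsph1, which ran from -0.12 (Hsph1) and -0.21 (Hspb1) to 0.39 (Hspd1). Of the 4, only Hspe1 kept its call in each of the 12 fits that left out 1 library: the call was lost for Hspa8 in 3 of them, and for Hsp90ab1 and Dnajb1 in 4 each. Without PBS E2 replicate 2 or DOX E2 replicate 1 the number called was 1, and without DOX OIL replicate 1 or PBS E2 replicate 3 it was 2. With the adipocyte level as a covariate Hspa8 (0.80 ± 0.30, adjusted p = 0.072), Hspe1 (0.51 ± 0.19, adjusted p = 0.0717) and Hsp90ab1 (0.46 ± 0.17, adjusted p = 0.0751) did not pass.

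Without E2, DOX changed none of the 10 genes. Under OIL, where 0.0129% of all genes tested were called, the differences ran from -0.11 ± 0.15 (Dnajb1) to 0.28 ± 0.29 (Hsph1). The groups overlapped in all 10 genes, where 11.3% of all genes tested had no overlap. Of the 10 genes, 0 had an unadjusted p under 0.05, and DESeq2 and limma-voom called 0 of them. Under P4, where 0% were called by edgeR, an unadjusted p under 0.05 was found for 822 genes, and DESeq2 called 10 genes and limma-voom 4, none of them among the 10. Here the differences ran from -0.36 ± 0.15 (Dnajb1) to 0.11 ± 0.15 (Hspd1). Dnajb1 was the only 1 of the 10 with an unadjusted p under 0.05 (adjusted p = 0.892). The groups again overlapped in all 10 genes, where 17.2% of all genes tested had no overlap. In the interaction of P4 and DOX, where 0.00645% of all genes tested were called, the 10 genes ran from -0.33 (Hsph1) to 0.09 (Hspa8), 0 were called by edgeR, DESeq2 or limma-voom and 0 had an unadjusted p under 0.05. A missed threshold in 3 libraries a group does not show that DOX had no effect there.

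P4 gave a smaller rise than E2 over the same OIL libraries. In the PBS arm 8 of the 10 genes rose, where 31.8% of all genes tested were called, 16.2% higher and 15.6% lower. In the DOX arm 7 rose, where 29.8% were called, 14.7% higher and 15.1% lower. The median difference of the 10 genes was 0.67 and 0.68 on the log2 scale, against -0.01 and -0.02 over all genes tested. Both hormones were compared with the same OIL libraries, so their responses share those values.

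Hsph1 again had the largest difference with P4, at 23.9, 35.5 and 33.7 CPM in PBS OIL and 58.1, 68.9 and 133 CPM in PBS P4 (1.48 ± 0.29, 2.79-fold, adjusted p = 0.00158). In the DOX arm it was at 34.9, 36.6 and 41.4 CPM and then 70.1, 59.4 and 120 CPM (1.15 ± 0.28, 2.21-fold, adjusted p = 0.00723). The third P4 library of each arm was the highest, and no OIL library reached a P4 library; without DOX P4 replicate 3 the call in the DOX arm was lost (0.79 ± 0.27, adjusted p = 0.0517). Hspe1, the HSP10 lid of the chaperonin, was at 56.0, 67.6 and 77.7 CPM in PBS P4 and 61.8, 67.5 and 67.6 CPM in DOX P4 (0.69 ± 0.12 and 0.76 ± 0.12 over OIL, adjusted p = 0.000747 and 0.000426). Hspd1 rose 1.59-fold and 1.6-fold, Hspa8 1.6-fold and 1.7-fold, Hspa1a 1.6-fold and 1.61-fold, Hspa1b 1.67-fold and 1.64-fold, and Hsp90aa1 1.56-fold and 1.47-fold, in the PBS and DOX arm. Hsp90ab1 passed in the PBS arm (0.28 ± 0.10, adjusted p = 0.049) and not in the DOX arm (0.24 ± 0.10, adjusted p = 0.0919). The PBS arm call was lost in edgeR with no filter (adjusted p = 0.0575) or a stricter one (0.0513). It was also lost with a replicate block (0.0639) and with only the groups compared (0.123). DESeq2 called Hsp90ab1 in the DOX arm as well (0.27 ± 0.10, adjusted p = 0.0201).

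Dnajb1 and Hspb1 were the genes that P4 did not call in either arm. Dnajb1 was at 40.4, 42.7 and 60.7 CPM in PBS P4, against 37.9 to 40.1 CPM in PBS OIL (0.30 ± 0.15, adjusted p = 0.129). In DOX P4 it was at 32.1, 35.4 and 44.2 CPM, overlapping DOX OIL (0.05 ± 0.15, adjusted p = 0.827). Hspb1 differed by 0.24 ± 0.15 and 0.09 ± 0.15. The OIL and P4 libraries did not overlap in 9 of the 10 genes in the PBS arm (all but Hspb1), where 46.1% of all genes tested had none, and in 8 in the DOX arm (all but Dnajb1 and Hspb1), where 49.8% had none.

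Leaving out PBS P4 replicate 3 reduced the count in the PBS arm from 8 to 5, with the calls of Hspa8, Hsp90aa1 and Hsp90ab1 lost; the Hsp90ab1 call was lost without any 1 of the 6 libraries. Leaving out DOX OIL replicate 1 reduced the count in the DOX arm from 7 to 4, with the calls of Hspa1a, Hspa1b and Hsp90aa1 lost. Without DOX P4 replicate 2 or DOX P4 replicate 3 the count was 5. In the DOX arm the Hsp90aa1 call was lost in 3 of the 6 such fits, and those of Hspa1a and Hspa1b in 2 each. Among markers, 7 of 10 smooth muscle genes were higher with P4 in each arm, with a summed level of 8430 to 10200 CPM in PBS OIL and 16100 to 21200 CPM in PBS P4. Of 10 stromal markers 5 were higher in each arm, and 1 was lower in the DOX arm. Of 10 leukocyte markers 3 were lower in the PBS arm and 1 in the DOX arm. Of 10 epithelial markers 1 was higher and 1 lower in the PBS arm, and 2 were higher and 2 lower in the DOX arm. In the PBS arm 6 of 15 adipocyte markers were lower (median -3.53), with a summed level of 908 to 3330 CPM in PBS OIL and 210 to 488 CPM in PBS P4. In the DOX arm 1 of the 15 was lower (median -1.19). With the adipocyte level as a covariate Hspa8 (0.62 ± 0.23, adjusted p = 0.0664), Hsp90aa1 (0.59 ± 0.22, adjusted p = 0.0757) and Hsp90ab1 (0.24 ± 0.13, adjusted p = 0.218) did not pass in the PBS arm, nor did Hsp90aa1 in the DOX arm (0.53 ± 0.19, adjusted p = 0.0507). The part of the smooth muscle, stromal, leukocyte and epithelial markers in the P4 result was not tested.

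Hspa8, Hsp90ab1, Hspd1 and Hspe1 were lowest in the OIL groups, higher in the P4 groups, higher again in PBS E2 and highest in DOX E2, with overlap only between PBS and DOX of the same hormone below E2. Hsp90aa1 had the same order of means, but DOX OIL overlapped PBS P4 and PBS P4 overlapped DOX P4; Hsph1 had the same steps from OIL to P4 and E2, with PBS E2 and DOX E2 overlapping. Hspa1a and Hspa1b had the same steps from OIL to P4 and E2, but PBS E2 stood above DOX E2. Dnajb1 had overlapping levels in DOX OIL, DOX P4 and PBS OIL. In PBS P4 it ran from 40.4 to 60.7 CPM, overlapping DOX P4 and also DOX E2 (56.2 to 72.1 CPM). Its mean was 61.6 ± 9.09 CPM in DOX E2 against 108 ± 6.61 in PBS E2. Each group of Hspb1 overlapped the next in order, from 82.2 ± 11.7 CPM in PBS OIL to 105 ± 11.9 in PBS E2.

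Genes with a like pattern were ranked by Pearson's r of log2 CPM over the 18 libraries, among 10291 genes, as a description; the libraries share their hormone groups and the ranking used all 18. For Hspd1 the closest were Ncbp1, which binds the RNA cap, Cct6a, a subunit of the cytosolic chaperonin, and Abce1, a ribosome recycling factor, each at 0.996 (0.988, 0.981 and 0.982 over the 12 libraries without E2). For Hsp90aa1 they were Kpnb1 (importin beta, 0.996), Eif3a (0.994) and Cand1 (0.994), at 0.962, 0.93 and 0.923 without E2. For Hspa1b they were Ywhag (0.962), Dvl3 (0.952) and Ubtf (0.949), at 0.871, 0.855 and 0.834 without E2. For Hspb1 they were Rnf123 (0.816), Ilk (0.741) and Inpp5a (0.714), at 0.814, 0.804 and 0.599 without E2. Among the 10 genes, r was 0.987 for Hspa8 and Hspd1 and 0.717 for Hspa8 and Dnajb1.

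The other genes of the folding machinery were taken as 6 lists. Their counts stand beside the shares of all genes tested that were called: 29.6% higher and 31.9% lower with E2 in the PBS arm, and 20.4% higher and 20.6% lower with DOX under E2. All list values are from the edgeR fit without the adipocyte covariate. With that covariate 3469 of all genes were called for DOX under E2, against 6358, and 2805 in the interaction, against 3553. List calls are not given for that fit, and for these genes too the adipocyte level and DOX cannot be told apart. Of 14 genes of the cytosolic chaperonin CCT and prefoldin, which fold actin and tubulin, 12 rose and 1 fell with E2 in the PBS arm (Cct6a 1.92, Cct3 1.77, and Pfdn5 -0.74 on the log2 scale). With DOX under E2, 11 of the 14 were higher and 0 lower (median 0.54, Cct7 0.62 and Cct8 0.62), and 8 were called higher in the interaction (Cct7 0.61, Cct8 0.61), where 10.1% of all genes were called higher. Of 18 HSP90 co-chaperones, 14 rose and 1 fell with E2 in the PBS arm, such as Stip1, which bridges HSP70 and HSP90 (1.90), and Ptges3, the p23 co-chaperone (1.54). With DOX under E2, 11 of these were higher and 1 lower (median 0.26, Ppid 0.45, Ahsa2 -0.38). With P4, where 16.2% and 14.7% of all genes were called higher in the PBS and DOX arm, Fkbp5, a co-chaperone of steroid receptors that is itself induced by them, was among the 10 higher in the PBS arm (2.87) and the 9 higher in the DOX arm (2.35).

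In the remaining HSP70 machinery, 25 genes, E2 raised 19 and lowered 0 in the PBS arm (Hspa4 1.90, Bag5 1.09), and DOX under E2 raised 6 and lowered 4 (Hspbp1 0.56, Hspa4 0.53, Hspa2 -0.55, Hspa4l -0.36), a share near the 41% of all genes called in that comparison. Of 16 further mitochondrial chaperones and proteases, 12 rose and 2 fell with E2 in the PBS arm (Hspa9, the mitochondrial HSP70, 1.80; Hscb, which serves iron-sulfur cluster assembly, -1.99), and DOX under E2 raised 8 and lowered 1 (Clpp 0.52, Grpel2 0.43, Hscb -0.87). Of 7 tested genes of HSF1 and its regulators, E2 raised 3 in the PBS arm, Hsf1 among them (0.49), and with DOX under E2 0 were higher and 1 was lower (Hsf4 -0.93). Of 6 tested further small heat shock proteins, 2 rose and 1 fell with E2 in the PBS arm (Hspb8 1.28, Hspb7 1.17, Hspb11 -0.84), and with DOX under E2 Hspb8 was higher (0.85). With DOX under OIL or P4 none of the genes of these lists was called.

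**Figure D5:**
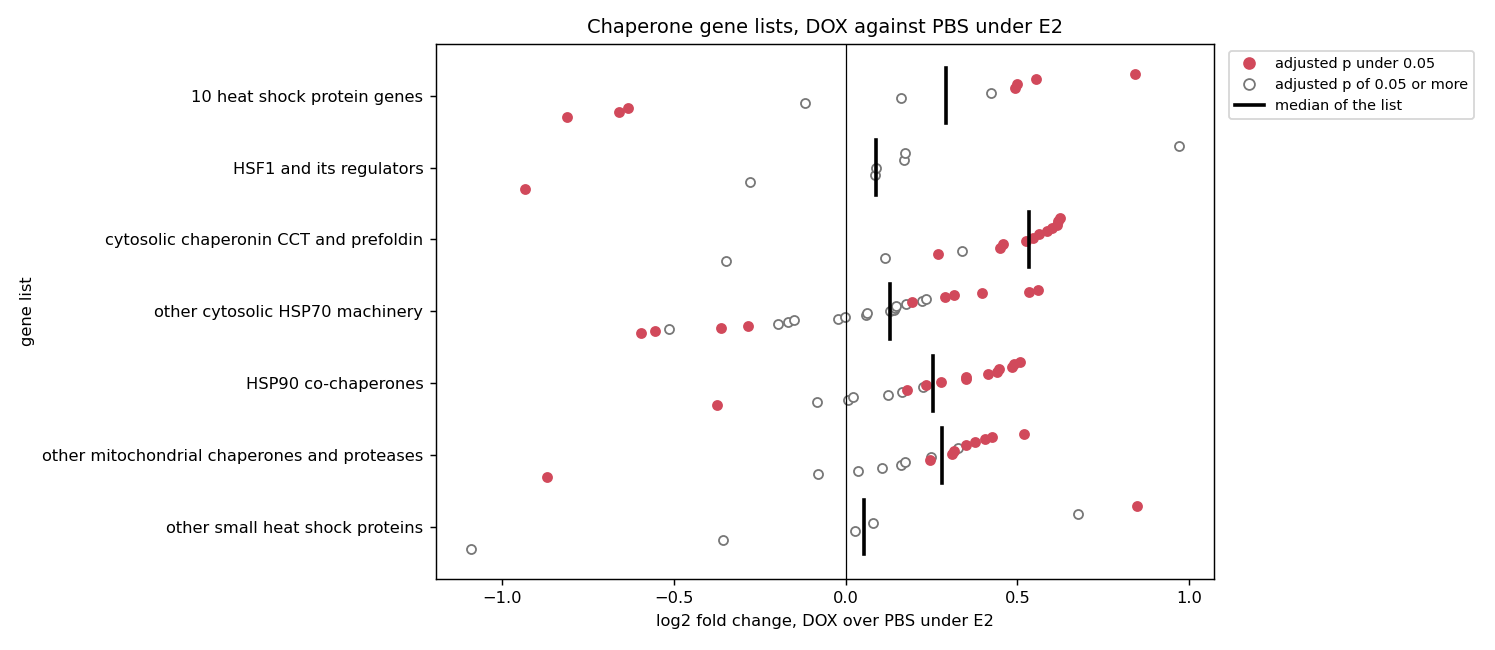
Log2 fold change of DOX over PBS under E2 for each tested gene of the 10 heat shock protein genes and of the 6 lists of other chaperone genes; red points passed an adjusted p of 0.05 and bars are medians. The chaperonin and prefoldin list has its median at 0.54, with 11 of 14 genes called higher.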

How the data were processed

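Uterine RNA was isolated by Trizol and sequenced from TruSeq libraries, 18 in all with 3 in each of 6 groups, per the labels. The authors deposited raw counts per gene symbol, which were checked to be whole numbers. Per the submitters' processing notes the build was GRCm38 and the tools included StringTie 1.3.4d and HISAT2 2.1.0, besides Trimmomatic 0.36, SAMtools 1.6 and DESeq2 1.18.1. The counting tool, its annotation and strand setting and its treatment of reads with several matches were not given in the sources used here.

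Groups and replicate numbers were taken from the library labels. The low-count filter was filterByExpr (edgeR 4.0.16), after which 15494 genes remained. TMM scaling was used, and CPM are counts per 1000000 of the scaled totals. A robust quasi-likelihood model of edgeR was fitted to the 6 groups at once (12 residual degrees of freedom). The 9 comparisons were contrasts of it, with p-values adjusted by Benjamini-Hochberg over all genes tested and a threshold of 0.05. The SE is the log2 fold change divided by the square root of F. The script was tested on simulated counts.

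Alternatives were DESeq2 1.42.0 and its size factors, limma 3.58.1 voom, no filter, a filter of 1 CPM in 3 libraries, only the groups compared, a replicate block, the adipocyte level as a covariate, both Hspa1 copies summed, and leaving out each library. The members, the lists and the rule for naming genes were chosen with earlier results of these data known. The rule takes all 10 members, the 2 called genes with the smallest p in each direction, list and comparison, and the 3 genes most like Hspa1b, Hsp90aa1, Hspd1 and Hspb1, among genes whose log2 CPM averaged 3 or more. Levels per kb use the exonic length of GENCODE M21 on GRCm38. Older symbols were matched through RefSeq synonyms, and 2 erythrocyte markers were not matched. Replicate numbers were not taken to pair libraries. Correlations of same-numbered deviations ran from -0.28 to 0.36, and in no comparison were all 3 pairs over 0.1. The nearest was DOX against PBS under OIL (0.28, 0.36 and 0.085), and these values do not exclude pairing. The number and depth of the libraries limit the precision of low genes.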

Additional observations from a re-analysis of the deposited data

Results flagged for a closer look

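The response to E2 differed between the DOX and PBS arms, by the interaction term of edgeR, for 4 of the 10 genes, while 22.9% of all genes tested were called in that interaction. The response in the DOX arm was larger for Hspa8 by 0.87 on the log2 scale, for Hspe1 by 0.65 and for Hsp90ab1 by 0.50. For Dnajb1 it was smaller (-0.70). With the adipocyte level as a covariate 1 of the 4 calls was left, that of Dnajb1 (adjusted p = 0.05 as rounded, just under the threshold), and without PBS E2 replicate 2 or DOX E2 replicate 1 the count was also 1. Groups of 3 libraries were too small for a search for single libraries far from the others.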

How the results depend on the processing

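The 9 rises with E2 passed in both arms under each alternative run. With the adipocyte level as a covariate the number of the 10 genes called was 1 for DOX under E2 (7 without it), 5 for P4 in the PBS arm (8 without it) and 1 for the interaction of E2 and DOX (4 without it); Hsph1 under E2 then changed sign with DOX (-0.0355). Over fits that left out 1 library, the count ran from 5 for P4 in the PBS arm, from 4 for P4 in the DOX arm and from 1 to 6 for the interaction of E2 and DOX. These fits turned the sign of some values that did not pass: Hspd1 for DOX under P4 (-0.000511 to 0.30), Dnajb1 (-0.0912 to 0.15) and Hspb1 (-0.0475 to 0.23) for P4 in the DOX arm, Hsph1 (-0.22 to 0.02) for the interaction of E2 and DOX, and Hsph1 (-0.70 to 0.11) and Hspa8 (-0.0792 to 0.27) for that of P4 and DOX; the cause was not tested. With the replicate block, 8 of the 10 genes were called for DOX under E2 (Hsp90aa1 was added, adjusted p = 0.0238) and 7 for P4 in the PBS arm. With only the groups compared, 4365 genes were called for DOX under E2, and with the adipocyte covariate 3469, against 6358. Library depth was not varied, and the sequence that Hspa1a and Hspa1b share limits their separate values at any depth.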
